A study of Mus musculus with 18 samples.

Results

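The p21-activated kinases (PAKs) are serine/threonine kinases that act downstream of the small GTPases Rac and Cdc42. The 6 mouse genes of the family, *Pak1*, *Pak2*, *Pak3*, *Pak4*, *Pak6* and *Pak7* (now also called *Pak5*), were taken by name from the deposited table of hippocampal RNA, where all 6 of them are among 15329 genes listed. Each has a value in all 18 libraries, which are 3 for each of 6 groups of C57BL/6J mice of 8 to 10 weeks. Mice without and with a *Ccny* knockout (WT and KO) were taken untrained (groups WT_Basal and KO_Basal). Others had learned a platform position in the Morris water maze, called original learning (groups WT_OL and KO_OL), and a last set had then learned a changed position, called reversal learning (groups WT_RL and KO_RL). *Ccny* encodes cyclin Y, an actin-binding protein of the postsynapse, and the KO mice lack it in every training state by their labels, which do not give how the knockout was made. Each library of a group came from a separate mouse, so the p-values measure the spread between mice.

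PAKs fall into a pair of groups. Group I (*Pak1*, *Pak2* and *Pak3*) is held inactive by its own N-terminal regulatory region until GTP-bound Rac or Cdc42 is bound, while group II (*Pak4*, *Pak6* and *Pak7*) has a differently organised regulatory region. Both groups phosphorylate LIM kinases, which in turn phosphorylate and inactivate the actin-severing protein cofilin, and in hippocampal neurons PAKs are known for their part in the shape and plasticity of dendritic spines. *PAK3* is a human gene of X-linked intellectual disability.

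The paralogs are related but separate sequences, which matters for counting reads on each of them. The activation segment of the kinase domain is where group I PAKs are phosphorylated on activation. Its stretch of 84 coding bases lies in 1 exon in each gene and has the same length in all 6. It is given for each gene on its coding strand, 5′ to 3′, from GENCODE M21 transcripts on GRCm38, with capitals at the bases that differ from *Pak1*.
Pak1: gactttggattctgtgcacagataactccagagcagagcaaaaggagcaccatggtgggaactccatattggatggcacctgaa
Pak2: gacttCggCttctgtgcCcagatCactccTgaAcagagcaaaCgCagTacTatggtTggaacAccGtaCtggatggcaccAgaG
Pak3: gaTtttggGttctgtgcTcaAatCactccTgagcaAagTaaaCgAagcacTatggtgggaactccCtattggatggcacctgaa
Pak4: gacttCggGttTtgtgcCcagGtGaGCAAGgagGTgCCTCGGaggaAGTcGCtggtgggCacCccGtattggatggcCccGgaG
Pak6: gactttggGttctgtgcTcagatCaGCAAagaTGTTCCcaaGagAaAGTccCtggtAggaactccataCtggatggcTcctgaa
Pak7: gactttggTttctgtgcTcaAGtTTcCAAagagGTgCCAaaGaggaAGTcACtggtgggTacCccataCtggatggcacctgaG
The stretches lie at chr7:97904640-97904723 (*Pak1*, plus strand), chr16:32023200-32023283 (*Pak2*, minus strand), chrX:143774940-143775023 (*Pak3*, plus strand), chr7:28560829-28560912 (*Pak4*, minus strand), chr2:118694527-118694610 (*Pak6*, plus strand) and chr2:136087423-136087506 (*Pak7*, minus strand). From *Pak1* they differ at 16 bases in *Pak2* and 12 in *Pak3*, and at 30 in *Pak4*, 22 in *Pak6* and 24 in *Pak7*. Of these, 15 and 11 were at the third codon position in *Pak2* and *Pak3*, against 17, 12 and 13 in the group II genes. Over whole coding sequences, identity at aligned codons was 70.8% to 74.3% within group I, 57.4% to 62.2% within group II and 49.2% to 55.1% between the groups. The longest run of identical bases in any of the 15 pairs of transcripts was 37 bases, shorter than a read of 100 bases. *Pak4* shares 39 bases of exon with *Samd4b* on the same strand, and reads there are uncertain.

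The genes also differ in base composition. GC content of the exons was 48.8% in *Pak1*, 42.9% in *Pak2*, 40.6% in *Pak3* and 42.5% in *Pak7*, but 58.7% in *Pak4* and 57.8% in *Pak6*. The median over all genes with an annotation was 49.4%. *Pak4* and *Pak6* thus stood at percentiles 93.5 and 90.7 of all genes and *Pak3* at percentile 7.32. At the third codon position the contrast was larger, with 69.1% in *Pak4* and 70.2% in *Pak6* against 44.0% in *Pak3*.

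Between 29248557 and 37915576 reads per library fell on listed genes, and 1 read was worth 0.0274 to 0.0333 CPM, the unit of reads scaled for library size. The lowest read number behind a value of a paralog was 318, for *Pak4* in KO_Basal replicate 1. *Ccny* RNA remained in KO libraries, at 92.0 ± 3.33 CPM (SD, n = 3) in KO_Basal against 155 ± 4.87 in WT_Basal, and at 79.7 ± 4.15 in KO_RL against 128 ± 20.8 in WT_RL. Whether those reads lie outside the deleted part was not tested. Defining markers of hippocampal pyramidal and granule neurons were present in every library, with 7 of 7 genes above 0 and a summed level of 5300 to 7062 CPM. Choroid plexus markers varied from 42.0 to 8355 CPM in sum. In such whole tissue, fewer cells of a type and less RNA per cell cannot be told apart.

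*Pak1* was the most abundant PAK by a wide margin. Levels of different genes were compared as CPM per kb of exon, averaged over 18 libraries. *Pak1*, at 91.1 ± 6.66 CPM per kb (SD, n = 18), held 65.1% of the summed level of the family. It was followed by *Pak3* at 15.5 ± 2.56 and *Pak6* at 14.4 ± 2.11, then *Pak2* at 9.89 ± 0.788, *Pak7* at 5.53 ± 0.541 and *Pak4* at 3.52 ± 0.371 CPM per kb. The lowest *Pak1* value, 78.6 CPM per kb, was above the highest *Pak6* value of 19.99 and the highest *Pak3* value of 18.9. Group II genes held 13.7% (WT_RL replicate 3) to 22.2% (WT_OL replicate 2) of the summed level.

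*Pak3* and *Pak6* could not be ordered beyond their spread: *Pak3* was above *Pak6* in 14 of 18 libraries, and in WT_OL the means were in the opposite order. By the longest transcript in place of all exons, *Pak3* was above in 11 of 18 libraries and KO_OL also had *Pak6* first. *Pak6* was above *Pak2* in 17 of 18 libraries, with overlapping ranges. *Pak2* and *Pak7*, and *Pak7* and *Pak4*, did not overlap in any pair of libraries. *Pak1* was first and *Pak4* last in all 6 groups by either length.

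**Figure D1:**
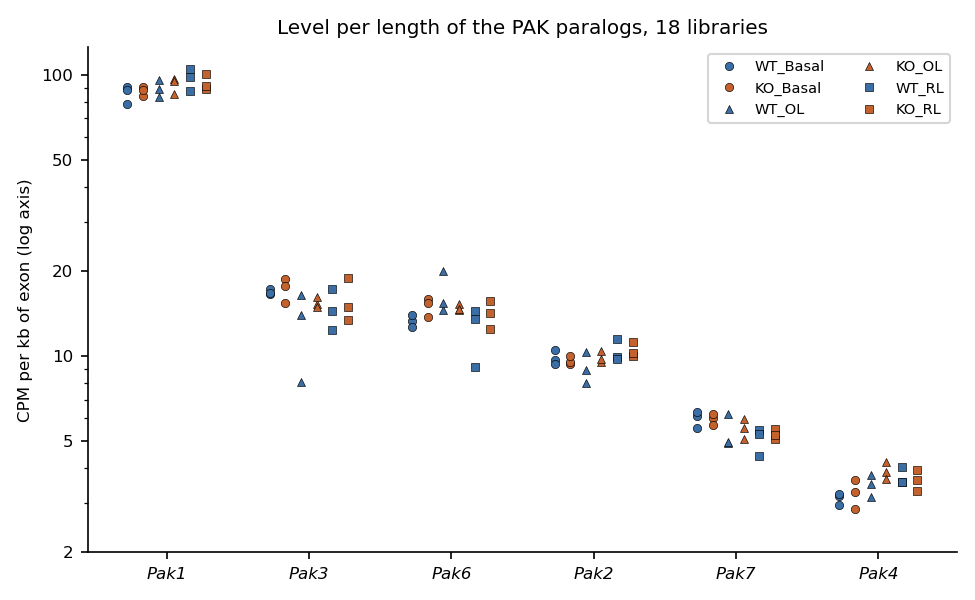
Level of each PAK gene in CPM per kb of exon (vertical log axis) in the 18 libraries, coloured by genotype and with a symbol for each training state. *Pak1* (78.6 to 105 CPM per kb) lies above all others, *Pak3* and *Pak6* share a range, and *Pak4* (2.86 to 4.20 CPM per kb) is lowest.

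No group I gene passed the test in any training comparison in the main fit. The main fit used the deposited values of all libraries with equal weight. After a correction for GC content, given below, *Pak2* was called in RL against Basal. Changes were estimated with limma on log2(CPM + 1), adjusted over 15329 genes by the Benjamini-Hochberg method, within each genotype and as the mean of both genotypes. *Pak1* measured 310, 358 and 349 CPM in WT_Basal and 331, 357 and 349 CPM in KO_Basal. It measured 351, 328 and 379 CPM in WT_OL and 383, 376 and 339 CPM in KO_OL. After reversal learning it measured 414, 387 and 346 CPM in WT_RL and 352, 399 and 361 CPM in KO_RL. The groups overlapped in every comparison. The log2 change as the mean of both genotypes was 0.07 (standard error 0.0612) from Basal to OL and 0.14 (standard error 0.0612) from Basal to RL, with an adjusted p of 0.437 and 0.0971 from limma. Without WT_RL replicate 3 the RL value was 0.17 (adjusted p = 0.0411 from limma).

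*Pak2*, the group I kinase found in most tissues, had group means between 61.8 ± 7.78 CPM (SD, n = 3) in WT_OL and 71.2 ± 4.41 CPM (SD, n = 3) in KO_RL. It measured 65.9, 63.4 and 71.6 CPM in WT_Basal. WT_OL measured 60.5, 54.7 and 70.1 CPM and WT_RL 67.6, 66.1 and 77.9 CPM, a log2 change of 0.19 (adjusted p = 0.294, limma). The groups overlapped, and without WT_OL replicate 3 the value was 0.29 (adjusted p = 0.0369, limma). In KO libraries it measured 63.7, 64.5 and 68.1 CPM in Basal, 64.5, 70.7 and 66.5 CPM in OL and 76.2, 67.8 and 69.7 CPM in RL. The mean of both genotypes gave a log2 change of -0.04 in OL and 0.10 in RL against Basal (standard error 0.0624, adjusted p = 0.658 and 0.252 from limma).

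*Pak3*, the X-linked and neuron-enriched member, varied most. It measured 158, 166 and 160 CPM in WT_Basal and 133, 77.3 and 157 CPM in WT_OL, so that all 3 trained libraries were lower and 1 of them set the distance. The change on the log2 scale was -0.45 (adjusted p = 0.146, limma) and -0.16 (adjusted p = 0.573 from limma) without WT_OL replicate 2. Without WT_OL replicate 3 it was -0.66, with an adjusted p of 0.0265 from limma. In KO libraries *Pak3* measured 179, 147 and 169 CPM in Basal and 146, 155 and 142 CPM in OL, which overlap. WT_RL held 166, 118 and 138 CPM and KO_RL 128, 180 and 143 CPM, and both ranges took in values of the other states. Averaged over genotypes, the log2 change from Basal was -0.30 in OL (standard error 0.136, adjusted p = 0.106 from limma) and -0.18 in RL (adjusted p = 0.336 from limma). The OL value was -0.41 (adjusted p = 0.0227 from limma) without WT_OL replicate 3 and -0.16 (adjusted p = 0.222 from limma) without WT_OL replicate 2.

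**Figure D2:**
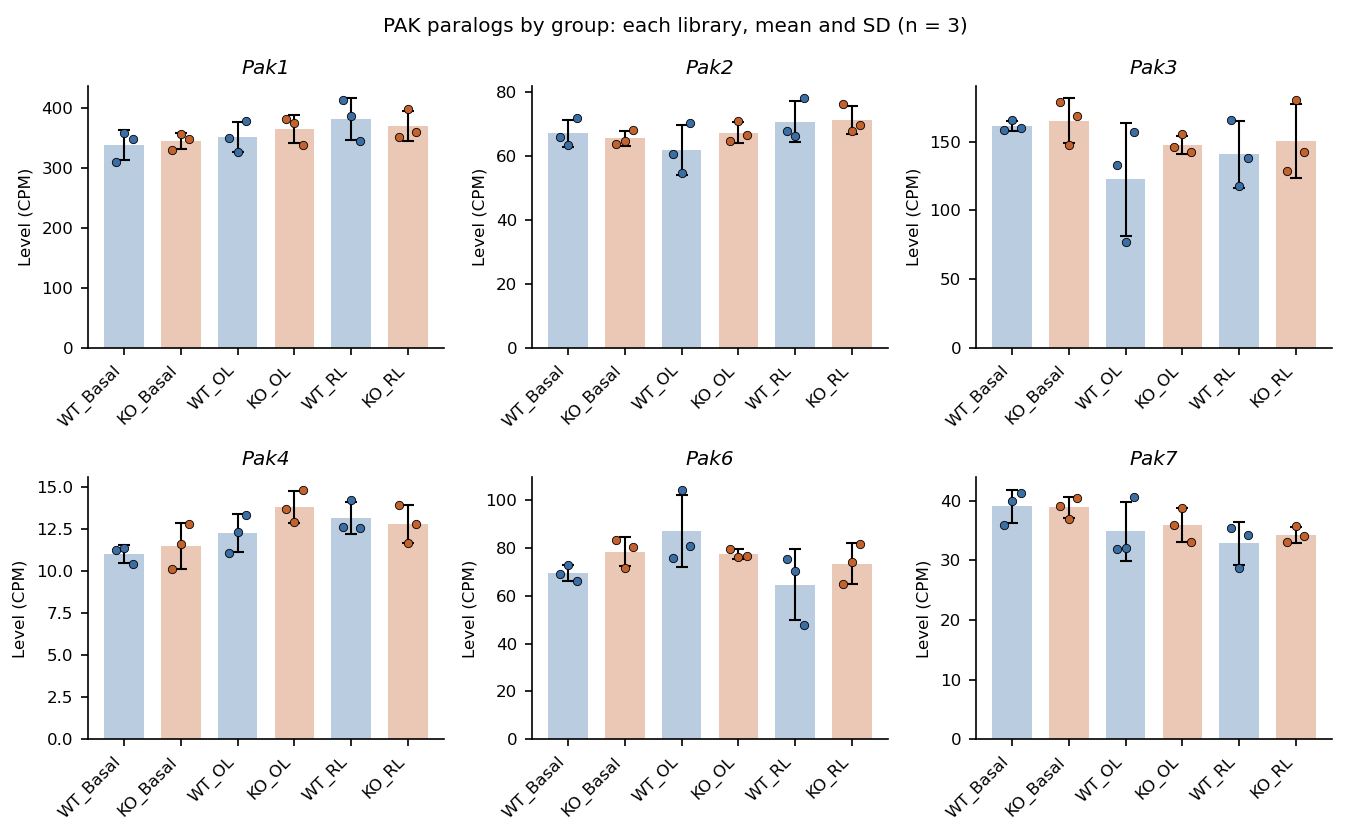
CPM of each PAK gene by group, with points for the 3 libraries, bars for their mean and error bars for the SD. *Pak3* in WT_OL (77.3 to 157 CPM) and *Pak6* in WT_RL (47.7 to 75.5 CPM) each have 1 library well below the others, and *Pak7* is lower in each RL library than in each Basal library.

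*Pak4* and *Pak7* were the members that passed the test in the main fit, in opposite directions, both by small amounts and close to the threshold. *Pak4*, a broadly expressed kinase and the lowest here, measured 11.3, 11.4 and 10.4 CPM in WT_Basal and 10.1, 11.6 and 12.8 CPM in KO_Basal. It measured 11.1, 12.3 and 13.3 CPM in WT_OL and 13.7, 12.9 and 14.8 CPM in KO_OL. In RL it measured 12.6, 14.3 and 12.6 CPM (WT) and 13.9, 11.7 and 12.8 CPM (KO). All KO_OL libraries were above all KO_Basal libraries, and all WT_RL above all WT_Basal, while the other 2 comparisons with Basal overlapped.

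As the mean of both genotypes *Pak4* rose 1.14-fold in OL (log2 change 0.19, standard error 0.0701, adjusted p = 0.0495 from limma) and 1.14-fold in RL (log2 change 0.19, adjusted p = 0.0460 from limma). It was 1 of 6 members called in OL against Basal, where 28.6% of all genes were called. Within a genotype the largest value was 0.25 in KO_OL (adjusted p = 0.0812 from limma; 0.32 and 0.0457 without KO_Basal replicate 3), and in WT_RL it was 0.23 (adjusted p = 0.123 from limma). Both averaged calls were lost in 9 of the 12 fits that each left out 1 library. They held without KO_Basal replicate 3 in both comparisons, without WT_OL replicate 1 or KO_OL replicate 2 in OL, and without WT_RL replicate 3 or KO_RL replicate 2 in RL.

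*Pak7*, a brain-enriched kinase, measured 36.0, 39.9 and 41.3 CPM in WT_Basal and 39.2, 36.9 and 40.5 CPM in KO_Basal. It measured 31.9, 32.1 and 40.5 CPM in WT_OL and 35.9, 38.8 and 33.0 CPM in KO_OL, which overlap Basal. After reversal learning it measured 35.4, 28.8 and 34.2 CPM in WT_RL and 33.1, 35.7 and 34.1 CPM in KO_RL. Its highest RL value, 35.7 CPM, was below its lowest Basal value, 36.0 CPM, a separation of 6 libraries from 6 that 1 of 6 members showed and 19.7% of all genes. No member separated OL from Basal (14.3% of all genes) or RL from OL (0.77%) in this way.

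*Pak7* fell by 0.21 on the log2 scale from Basal to RL as the mean of both genotypes (standard error 0.0703, adjusted p = 0.0278 from limma), a 0.864-fold level. With *Pak4* this made 2 of 6 members called in this comparison, where 35.4% of all genes were called. The change was -0.25 in WT libraries (adjusted p = 0.103 from limma) and -0.17 in KO libraries (adjusted p = 0.216 from limma). From Basal to OL it was -0.14 (adjusted p = 0.153 from limma), and -0.19 without WT_OL replicate 3 (adjusted p = 0.0299 from limma). The averaged RL call was lost in 7 of 12 fits without 1 library, where its adjusted p from limma reached 0.0720, and it held without WT_Basal replicate 1, KO_Basal replicate 2, WT_RL replicate 1, WT_RL replicate 3 or KO_RL replicate 2.

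*Pak6*, first described as a partner of the androgen receptor and abundant in brain, had its highest values in WT_OL and its lowest in WT_RL, and passed no test. It measured 69.1, 72.8 and 66.1 CPM in WT_Basal, 75.9, 104 and 80.7 CPM in WT_OL and 75.5, 70.4 and 47.7 CPM in WT_RL. All WT_OL libraries lay above the other 2 WT groups. It differed by 0.31 on the log2 scale from WT_Basal to WT_OL (adjusted p = 0.183, limma) and -0.44 from WT_OL to WT_RL (adjusted p = 0.190 from limma). Without WT_OL replicate 2 the first was 0.17, and without WT_RL replicate 3 the second was -0.24. In KO libraries it measured 83.4, 71.6 and 80.4 CPM in Basal, 79.6, 76.1 and 76.5 CPM in OL and 64.8, 73.9 and 81.6 CPM in RL, and all overlapped. The averaged change was 0.15 from Basal to OL (95% interval -0.07 to 0.36), -0.26 from OL to RL and -0.11 from Basal to RL (adjusted p = 0.370 and 0.415 for the last pair, limma). The first was 0.08 without WT_OL replicate 2, and the others were -0.16 and -0.01 without WT_RL replicate 3. That library had the highest sum of choroid plexus markers, 8355 CPM against 42.0 and 839 CPM in the other WT_RL libraries, and the part of these cells in the *Pak6* values was not tested.

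Within a genotype, 0 of 6 members were called in any training comparison by limma in the main fit. Of all genes, 9.5% were called in WT_OL and 15.7% in WT_RL against WT_Basal, and 23.5% in KO_OL and 23.6% in KO_RL against KO_Basal. Between the trained states, 0.261% were called in WT_RL against WT_OL and 0.0196% in KO_RL against KO_OL. Of the 36 values, 7 (19.4%) had an unadjusted p under 0.05, against 25.1% of the values of all genes. Members whose groups did not overlap numbered 2 of 6 in WT_OL against Basal (28.3% of all genes), 1 in KO_OL (48.8%), 2 in WT_RL (34.3%) and 1 in KO_RL (45.3%). Between OL and RL they numbered 1 in WT (11.1% of all genes) and 0 in KO (13.2%). From OL to RL averaged over genotypes, 0 of 6 members were called by limma and 2, *Pak2* (0.14) and *Pak6*, had an unadjusted p under 0.05. Over all genes 0.352% were called and 11.1% had an unadjusted p under 0.05. *Pak1*, *Pak3*, *Pak4* and *Pak7* were at 0.07, 0.13, -0.00 and -0.07 there, with standard errors of 0.0612 to 0.136.

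No PAK gene passed the test between *Ccny* KO and WT libraries in any training state in the main fit. The 18 log2 differences ranged from -0.15 to 0.33, with 0 at an unadjusted p under 0.05, and limma called 0.0196% of all genes in Basal, 0.0652% in OL and 0% in RL. The 95% intervals spanned -0.46 to 0.74 in all. The largest values were *Pak3* in OL, 0.33 higher in KO (adjusted p = 0.365 from limma), and *Pak6* in RL, 0.20 higher in KO (adjusted p = 0.986 from limma). Without WT_OL replicate 2 the first was 0.03, and without WT_RL replicate 3 the second was 0.00.

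The training change itself was not shown to differ between genotypes for any member (0 of 18 values by limma, 0 at an unadjusted p under 0.05, and 0% of all genes in each comparison). The largest differences, KO change minus WT change, were -0.33 for *Pak6* from Basal to OL, 0.36 for *Pak6* from OL to RL and 0.30 for *Pak3* from Basal to OL (adjusted p = 0.460, 0.667 and 0.589, limma). Without WT_OL replicate 2 these were -0.19, 0.22 and 0.00, and without WT_RL replicate 3 the second was 0.16.

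**Figure D3:**
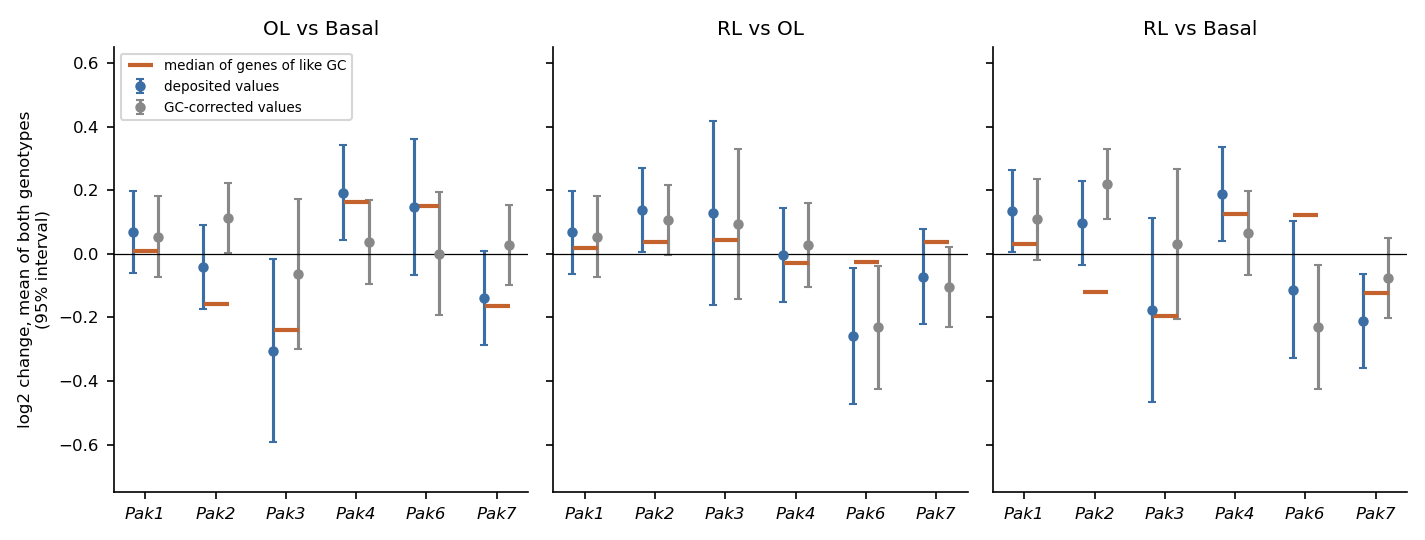
Log2 change of each PAK gene as the mean of both genotypes, with 95% intervals, from deposited values (blue) and from values corrected for GC content (grey), beside the median change of genes within 1 GC point (orange dash). From Basal to OL all 6 medians of like genes lie on the same side of 0 as the member's own change, while in RL against Basal those of *Pak2* and *Pak6* lie on the other side, and the grey intervals of *Pak4* and *Pak7* include 0.

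Since the groups could shift relative to one another without a large change of any one gene, the log2 ratio of CPM was compared for all 15 pairs between training states, by an exact permutation of labels within genotype (two-sided, smallest possible p = 0.005, adjusted over 45 tests). Of the 5 pairs that hold *Pak7* as the second gene, those with *Pak1*, *Pak2* and *Pak4* passed in at least 1 comparison and those with *Pak3* and *Pak6* in none. The log2 ratio of *Pak4* to *Pak7* was -1.98 to -1.66 in Basal, -1.60 to -1.15 in OL and -1.61 to -1.01 in RL, and no trained library overlapped a Basal library. The mean change was 0.35 in OL and 0.42 in RL (adjusted p = 0.0321 for both, exact permutation test).

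The ratio of *Pak1* to *Pak7* increased by 0.21 in OL, where ranges overlapped, and by 0.35 in RL, where they did not. *Pak2* to *Pak7* increased by 0.31 in RL, from 0.67 to 0.87 in Basal to between 0.92 and 1.20 in RL. These 3 changes had an adjusted p of 0.0321 (exact permutation test), with the same direction in WT and in KO libraries.

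By the deposited values, *Pak3* lost ground to both GC-rich group II kinases after original learning. The log2 ratio of *Pak3* to *Pak4* was 3.66 to 4.15 in Basal and 2.65 to 3.59 in OL, and that of *Pak3* to *Pak6* was 1.04 to 1.28 in Basal and -0.43 to 1.03 in OL. The mean changes were -0.52 and -0.46 (adjusted p = 0.0321 for both, exact permutation test), with no overlap. In WT libraries they were -0.61 and -0.77, and in KO libraries -0.42 and -0.14. WT_OL replicate 2 gave the lowest value of both, and without it the changes were -0.36 and -0.24 (adjusted p = 0.0375 for both, exact permutation test). In RL both ratios overlapped their Basal range. After the GC correction given below, their OL changes were -0.10 and -0.06 (adjusted p = 0.690 and 0.970, exact permutation test). In all, 4 of 15 pairs passed in OL and 3 in RL against Basal, and 0 between RL and OL. Leaving out 1 library moved these counts to between 0 and 6, 0 and 5, and 0 and 2. Each of the 7 calls holds *Pak7* or *Pak3*, so they are not separate results. All 7 had the smallest possible p of 0.005 (exact permutation test). Their shared adjusted p therefore depended on how many tests reached that value together. How often other pairs of genes pass was not tested. Of single genes, limma called 28.6% in OL and 35.4% in RL against Basal. Leaving out any Basal library other than KO_Basal replicate 2 ended all 7 calls, with the direction kept and fewer arrangements possible. *Pak4* to *Pak7* was also lost without WT_OL replicate 1 or 2, WT_RL replicate 2 or KO_RL replicate 1, *Pak1* to *Pak7* without KO_OL replicate 1 or 3 or KO_RL replicate 1, and *Pak3* to *Pak4* without KO_OL replicate 1 or 3.

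**Figure D4:**
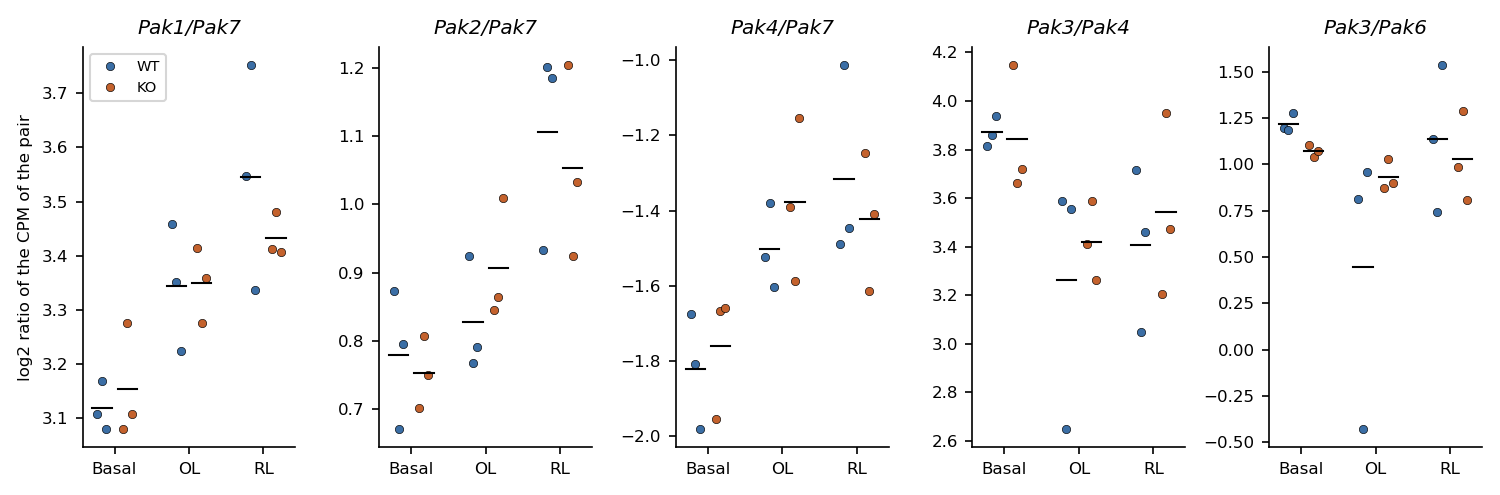
Log2 ratio of CPM for the 5 pairs that passed the test in at least 1 training comparison, by training state, with a point per library and a black line at the mean of each genotype (WT blue, KO orange). *Pak4* to *Pak7* lies between -1.98 and -1.66 in Basal and between -1.61 and -1.01 in trained libraries, and 1 WT_OL library lies apart for *Pak3* to *Pak6*.

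The libraries differed in how their values depended on GC content. The slope of a library's values on GC content, per 10 points of GC, was -0.167 to -0.105 in the 6 Basal libraries, 0.0184 to 0.214 in OL and -0.0169 to 0.123 in RL, with no overlap between Basal and trained libraries. WT_OL replicate 2, the library with the lowest *Pak3* and the highest *Pak6*, had the slope of 0.214. Genes within 1 GC point of *Pak3* had a median log2 change of -0.24 from Basal to OL, those near *Pak7* -0.16, those near *Pak2* -0.16, those near *Pak1* 0.01, those near *Pak6* 0.15 and those near *Pak4* 0.16.

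When each library was corrected for this trend, the calls changed. *Pak4* moved to 0.04 in OL and 0.06 in RL (adjusted p = 0.727 and 0.460 from limma) and *Pak7* to -0.08 in RL (adjusted p = 0.354 from limma). In their place *Pak2* was called in RL against Basal, where its log2 change became 0.22 (adjusted p = 0.00506 and standard error 0.0519, limma), 1 of 6 members, where 30.9% of all genes were called after the correction. Of 22 alternative fits, the GC correction was the 1 that called this averaged change. The corrected fit was not repeated with a library left out. Within a genotype the corrected change of *Pak2* was 0.24 in KO_RL (adjusted p = 0.0314 from limma), where 19.8% of all genes were called. In WT_RL it was 0.20 (adjusted p = 0.105 from limma), and the genotypes differed by 0.04 (adjusted p = 0.937 from limma). *Pak6* moved to -0.23 in RL against Basal (adjusted p = 0.0662 from limma). *Pak2* and *Pak6* were the members farthest from genes of like GC in RL, where the medians of those genes were -0.12 and 0.12. All 15 pairs of paralogs missed the threshold in each comparison after the correction (0 called by the exact permutation test). The training states and the GC slope cannot be told apart in this design, since every Basal slope lies below every trained slope.

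Astrocyte markers also separated the states: the sum of 5 of 5 markers was 3302 to 3678 CPM in Basal, 4053 to 5419 CPM in OL and 4408 to 5124 CPM in RL, with none at 0. Their part in the PAK changes was not tested. The other 9 marker lists overlapped between Basal and trained libraries, among them hippocampal neurons (5300 to 6452 CPM in Basal and 5655 to 7062 CPM after training).

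**Figure D5:**
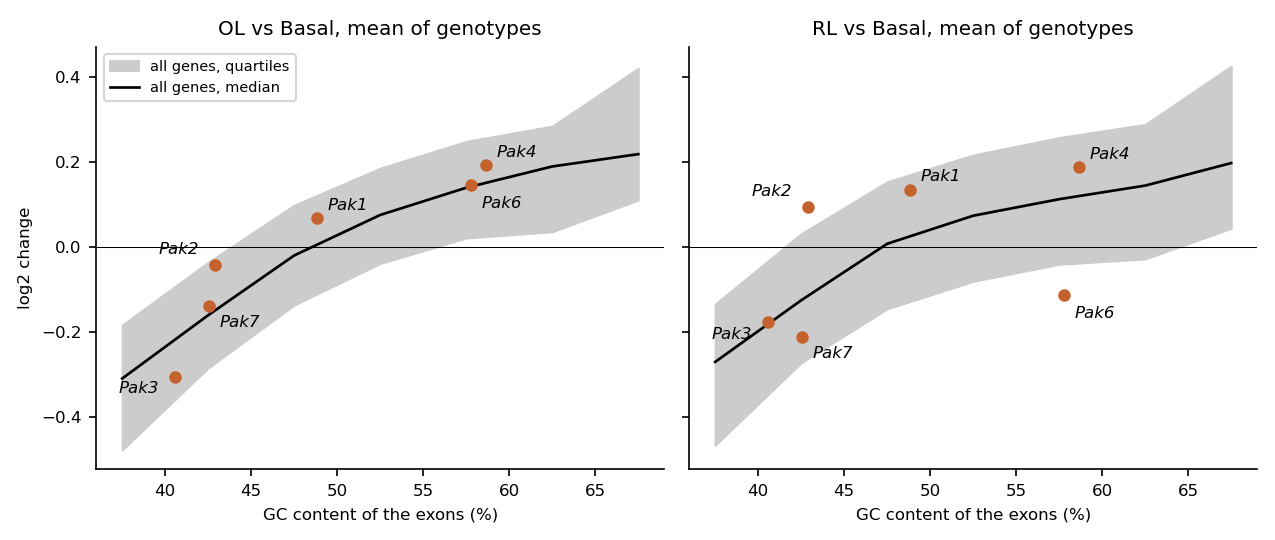
Log2 change as the mean of both genotypes (vertical axis) against GC content of the exons, for the 6 PAK genes (points) and for all genes with a mean of at least 1 CPM in bins of 5 GC points (line for the median, band for the quartiles). In OL 5 of 6 PAK genes lie within the quartiles of their bin and *Pak3* (-0.30) is just below the first quartile of its own (-0.28). *Pak3*, at 40.6% GC, is near the lower edge of its bin of 40 to 45%, and genes within 1 GC point of it had a median of -0.24. The band is drawn between bin midpoints, and the *Pak3* point lies within it. In RL *Pak2* lies above and *Pak6* below the quartile band.

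Around the kinases, 4 scaffold, adaptor and exchange factor genes were called higher after both kinds of training as the mean of both genotypes. A list of 39 genes, all listed in the table, was taken from general knowledge in 4 classes. Of 8 adaptors and exchange factors, 4 rose in OL as the mean of both genotypes (*Arhgef7*, *Git1*, *Git2* and *Nck2*) and 0 fell, with a median log2 change of 0.15. The same 4 rose in RL and *Nck1* fell by 0.27, a call that GC correction ended (-0.05). Over all genes tested by limma, 13.4% rose and 15.3% fell in OL, and 18% rose and 17.4% fell in RL.

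*Git2*, a scaffold that carries PAK and its exchange factor to focal adhesions and synapses, measured 28.3 to 30.8 CPM in Basal, 34.97 to 37.5 CPM in OL and 33.5 to 39.7 CPM in RL, with no overlap. Its log2 change was 0.32 in OL and 0.31 in RL (standard error 0.0501 for both, adjusted p = 0.000221 and 0.000201 from limma). *Git1*, the related scaffold, changed by 0.39 and 0.36. *Arhgef7*, which encodes the PAK-interacting exchange factor beta-PIX, changed by 0.23 and 0.34 and was separate from Basal in RL, at 133 to 155 against 108 to 127 CPM. *Nck2*, an adaptor that binds the PAK N terminus, changed by 0.26 and 0.33. Within a genotype, the OL change of *Nck2* was 0.04 in WT (adjusted p = 0.815 from limma) and 0.48 in KO libraries (adjusted p = 0.000452 from limma). That of *Git1* was 0.50 and 0.27 (adjusted p = 0.0192 and 0.124, limma), and that of *Arhgef7* 0.18 and 0.28 (adjusted p = 0.206 and 0.0284, limma). *Git2* was called in both genotypes. After GC correction *Git1* in WT (0.32, adjusted p = 0.119 from limma) was no longer called. Nor was *Arhgef7* in KO (0.22, adjusted p = 0.0792 from limma), while *Nck2* in KO and *Git2* in both genotypes stayed called. The difference between genotypes was not called for any of these 4 genes, in comparisons that called 0% of all genes. The averaged OL change of *Nck2* came mostly from KO libraries. As the mean of both genotypes, all 4 stayed called in both comparisons under every alternative tried. This included GC correction, where *Git2* was at 0.32 and 0.30.

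Of the 8 GTPases, *Cdc42* alone was called in OL, and it fell by 0.25 (standard error 0.0462, adjusted p = 0.000786 from limma). In RL 4 of 8 fell and 0 rose: *Cdc42* by 0.33, *Rac3* by 0.52, *Rhoq* by 0.29 and *Rhov* by 0.25. Of all genes, 15.3% fell in OL and 17.4% in RL. *Cdc42*, with 41.1% GC, lost both calls after the GC correction (-0.03 and -0.14, adjusted p = 0.767 and 0.0664 from limma). *Rac3*, with 61.0% GC, was at -0.65 in RL after it (adjusted p = 4.47e-05 from limma). *Rac1*, the ubiquitous activator of group I PAKs, was not called in either comparison (-0.10 and -0.06, adjusted p = 0.130 and 0.342 from limma), and its OL value was called (-0.13, adjusted p = 0.0252 from limma) without WT_OL replicate 3. The number of pathway genes lower in OL was 1, and 8 with library weights. Of all genes, 28.6% were called in either direction in the main fit and 46.5% with library weights.

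Of 7 inhibitors and phosphatases, 2 rose in both states and 0 fell. *Nisch*, which encodes nischarin, a binding partner that inhibits PAK1, measured 381 to 437 CPM in Basal, 441 to 570 CPM in OL and 504 to 566 CPM in RL, a log2 change of 0.36 and 0.42 (adjusted p = 0.000267 and 5.14e-05 from limma). The other was the PAK phosphatase *Ppm1f* (0.13 and 0.15), not called after GC correction (0.04 and 0.07). Of 16 substrates and effectors, 2 rose in OL and 4 in RL, and 0 fell. Of all genes, 13.4% rose in OL and 18% in RL, so these counts were near the share of all genes. *Ctnnd2*, the delta-catenin of dendrites, measured 148 to 179 CPM in Basal and 190 to 219 CPM in OL, and changed by 0.31 in OL and 0.27 in RL. *Limk1*, the kinase of cofilin, changed by 0.19 in OL (adjusted p = 0.0353 from limma) and by 0.27 in RL (adjusted p = 0.00380 from limma), and after GC correction by 0.08 (adjusted p = 0.372 from limma) and 0.18 (adjusted p = 0.0278 from limma). Its OL call held in 11 of 22 alternative fits. Within a genotype its OL change was 0.32 in WT (adjusted p = 0.0372 from limma) and 0.06 in KO libraries (adjusted p = 0.657 from limma). After GC correction the WT value was 0.19 and not called (adjusted p = 0.241 from limma). The difference between genotypes was not called. *Cttn* and *Arhgef2* also rose in RL, by 0.23 and 0.25, and *Cttn* was not called after GC correction. Between OL and RL, 0 of the 39 genes were called by limma.

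Over the 18 libraries, the genes most like each PAK were listed among 13978 genes with a mean of at least 1 CPM, by Pearson correlation of log2 values. The 18 libraries share 6 groups and differ in GC slope, so these correlations are a description. *Pak3* had the closest companions, *C77370* (r = 0.984), *Zfp644* (0.976) and *Pgm2l1* (0.973). Those of *Pak1* were *Tmem178* (0.912), *Alox12b* (0.894) and *Pitpna* (0.866), those of *Pak2* were *Xxylt1* (0.887), *Scaf11* (0.883) and *B3galt5* (0.863), and those of *Pak4* were *Hist3h2a* (0.917), *Ppt2* (0.880) and *Bcar1* (0.873). *Pak6* was closest to *2410002F23Rik* (0.882), *Lhx2* (0.877) and *Rap1gap2* (0.872) and *Pak7* to *B3glct* (0.862), *Cntn3* (0.837) and *Hs2st1* (0.834).

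Among the PAKs themselves, *Pak3* and *Pak7* went together (r = 0.662, and 0.665 with group means removed), and *Pak2* and *Pak6* went in opposite directions (r = -0.751, and -0.719 with group means removed). WT_OL replicate 2, with 54.7 CPM of *Pak2* and 104 CPM of *Pak6*, and WT_RL replicate 3, with 77.9 and 47.7 CPM, were at the ends of that relation. The other 13 pairs had r between -0.449 and 0.432. With group means removed, *Pak2* and *Pak7* had r = 0.584, *Pak1* and *Pak3* 0.538 and *Pak1* and *Pak7* 0.530.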

How the data were processed

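Paired reads of 18 hippocampal libraries were aligned by the authors to mm10 with STAR 2.5.1, counted per gene, normalized by TMM in edgeR 3.12.1 and deposited as log2 values for 15329 genes. The deposited log2 values are log2(CPM + 1), although the methods describe CPM floored at 1: undoing that scale gave whole reads, within 0.1 read, for 100% of values up to 1000 reads. Whether counting used strand is not given in the sources used here.

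Groups were taken from the labels. limma 3.58.1 in R 4.3.3 fitted 1 mean per group to all 18 libraries (eBayes with trend), and p-values of all 15329 genes were adjusted by Benjamini-Hochberg, with calls at an adjusted p under 0.05. The fit was tested on simulated data. Exact permutation of 3 libraries against 3 cannot give a p under 0.1. Intervals cover the spread between the mice. The members, lists and tests were chosen with earlier results of these data known. Named genes are all members, *Ccny*, the 10 called pathway genes with the largest change plus *Rac1*, *Cdc42* and *Limk1*, and the 3 genes most like each member; *Nck1*, *Rhov*, *Ppm1f*, *Cttn* and *Arhgef2* were added after their values were seen. GC content and exon lengths came from GENCODE M21 (99.4% of genes), sequences were aligned with Biopython 1.88, and the correction for GC content subtracted a lowess curve of each library's deviations on GC (span 0.3). Alternatives were a floor at 1 CPM, a pseudocount of 0.1, a filter at 1 CPM, median-ratio scaling, no variance trend, only the groups compared, library weights, voom on recovered reads, GC correction, a replicate block, each library left out and length by longest transcript. For pathway genes these were chosen after seeing the data.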

Additional observations from a re-analysis of the deposited data

How the results depend on the processing

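Of 90 log2 changes of members, 42 took the other sign in at least 1 alternative fit, and none of the 3 that were called did so, nor was any reversed value called there. Among the averaged changes, GC correction turned *Pak2* in OL to 0.11, *Pak7* in OL to 0.028, *Pak3* in RL against Basal to 0.032 and *Pak4* from OL to RL to 0.027, and library weights turned the last to 0.061. Leaving out 1 library took *Pak4* from OL to RL to between -0.036 and 0.026 and *Pak3* to between -0.021 and 0.23. The cause was not tested.

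The number of members called in OL against Basal, averaged, fell from 1 to 0 with libraries of the groups compared only, with GC correction and with the replicate block, was 3 with library weights (46.5% of all genes called) and 0 to 2 without 1 library. In RL against Basal it fell from 2 to 1 in those first 3 fits, was 3 with library weights (45.5% of all genes called) and 0 to 3 without 1 library. With GC correction the 1 was *Pak2*, while *Pak4* and *Pak7* were not called. Library weights gave 3 in WT_OL and 1 in KO_OL against Basal, and 2 for KO against WT in OL, all from 0. In those fits 31.8%, 39.9% and 27.3% of all genes were called. The weight was 7.03 for WT_OL replicate 1, against 0.208 and 0.381 for replicates 2 and 3. The weighted WT_OL values thus rested mostly on 1 library. GC correction gave 1 in KO_RL against KO_Basal. Without 1 library, 0 to 1 was called in WT_OL and KO_OL against Basal and in WT_RL against WT_OL. GC correction took the pairs of paralogs called to 0 in OL and in RL against Basal, and without 1 library they were 0 to 6 in OL, 0 to 5 in RL against Basal and 0 to 2 in RL against OL. By the longest transcript, *Pak1* held 67.1% of the summed level. *Rac3* was called in OL after GC correction (-0.42, adjusted p = 0.00245 from limma).

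Replicate numbers did not pair the libraries: deviations from group means correlated between -0.635 and 0.547 for same-numbered libraries, and 7 of 18 libraries were closest to one of their own number. With the replicate block, *Pak7* in RL stayed called (adjusted p = 0.0322 from limma) and *Pak4* did not (adjusted p = 0.0582 in OL and 0.0539 in RL). At least 318 reads stood behind each value, and each group has 3 libraries.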
